A study of Mus musculus with 6 samples.

Results

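Germline and meiosis genes are a panel of 33 mouse genes, chosen by name, out of 20805 named genes with a probe on the array. The panel was divided into a germline set of 21 genes (RNA-binding, piRNA and germ granule proteins, testis-specific genes, and regulators of germ cell fate and meiotic entry) and a meiotic set of 12 genes (chromosome axis, synaptonemal complex and recombination). All 33 had a probe, and 26 were measurable and tested. They were compared between wild-type (WT) embryoid bodies and embryoid bodies of mouse embryonic stem cells with Tet1, Tet2 and Tet3 all knocked out (TKO), with 1 WT line and 2 TKO lines, TKO_26 and TKO_29. All lines had a mixed 129/C57BL6 background. Embryoid bodies are aggregates in which stem cells differentiate without the self-renewal factor LIF, here for 2 days in hanging drops and then 8 days in suspension. RNA was hybridised to 2 arrays per line, which the series calls technical replicas; whether both carried RNA of one culture is unstated. P-values over arrays therefore compare lines and measure only the spread between arrays of a line, which may be technical.

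Germ cells arise from a few cells of the early embryo and later either pause or enter meiosis, in which homologous chromosomes are broken, paired by the synaptonemal complex and recombined. Many genes of this programme are silenced in somatic cells by DNA methylation at CpG-rich promoters and by repressor complexes that contain E2F6 or the MGA and MAX proteins. TET dioxygenases oxidise 5-methylcytosine and so favour loss of methylation. DNA methylation was not measured on these arrays, so the germline set carries its name from textbook knowledge only.

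Promoter sequences of the members were set beside those of all genes. RefSeq lists a promoter (GRCm38.p6, 250 bases before to 50 after the start) for 28 of the 33 members, and the first listed was used for each gene. These promoters held a median of 19.5 CpG dinucleotides, with a range of 6 to 48, against a median of 7 over the promoters of 27025 genes. The letters TCCCGC, the core of the E2F6 recognition sequence, or their complement GCGGGA occurred in 14 of the 28 promoters and in 20.0% of all promoters. The E-box CACGTG, read by MAX dimers, occurred in 12 of the 28 and in 7.24% of all promoters. Matches were counted on either strand at every position, overlapping ones included, and a match is no evidence of binding. The 150 bases before the start are given for 6 genes that were higher in both TKO lines and, as a contrast, for Smc1b, which was measured on all arrays and was not called; capitals mark the matches.
Ddx4: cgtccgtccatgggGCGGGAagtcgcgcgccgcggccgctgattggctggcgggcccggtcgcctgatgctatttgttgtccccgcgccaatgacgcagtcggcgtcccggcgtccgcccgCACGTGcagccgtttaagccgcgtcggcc
Tex14: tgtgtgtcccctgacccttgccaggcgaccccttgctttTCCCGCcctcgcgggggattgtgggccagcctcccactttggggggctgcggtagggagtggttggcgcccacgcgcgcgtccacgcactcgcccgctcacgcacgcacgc
Stra8: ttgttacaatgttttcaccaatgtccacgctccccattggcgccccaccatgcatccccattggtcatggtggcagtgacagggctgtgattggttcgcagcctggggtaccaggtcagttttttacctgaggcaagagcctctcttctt
Ccnb1ip1: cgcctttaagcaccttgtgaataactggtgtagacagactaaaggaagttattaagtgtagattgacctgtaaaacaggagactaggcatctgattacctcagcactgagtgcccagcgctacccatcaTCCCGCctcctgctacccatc
Rec8: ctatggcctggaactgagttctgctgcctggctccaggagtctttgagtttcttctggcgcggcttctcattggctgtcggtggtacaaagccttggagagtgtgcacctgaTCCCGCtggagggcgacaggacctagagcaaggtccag
Dmc1: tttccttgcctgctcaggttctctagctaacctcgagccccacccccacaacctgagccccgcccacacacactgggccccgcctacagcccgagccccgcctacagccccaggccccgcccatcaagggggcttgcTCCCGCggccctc
Smc1b: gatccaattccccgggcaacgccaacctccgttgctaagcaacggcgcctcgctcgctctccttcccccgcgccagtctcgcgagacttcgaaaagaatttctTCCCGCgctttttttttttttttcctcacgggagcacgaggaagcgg
These stretches lie at chr13:112652311-112652460 (minus strand) for Ddx4, chr11:87404915-87405064 (plus) for Tex14, chr6:34920798-34920947 (plus) for Stra8, chr14:50795729-50795878 (minus) for Ccnb1ip1, chr14:55618016-55618165 (plus) for Rec8, chr15:79605110-79605259 (minus) for Dmc1 and chr15:85131958-85132107 (minus) for Smc1b. Ddx4 has GCGGGA beginning 136 bases and CACGTG beginning 29 bases before its start. The TCCCGC of Tex14, Ccnb1ip1, Rec8, Dmc1 and Smc1b begins 111, 21, 38, 13 and 47 bases before the start, and the stretch of Stra8 holds neither motif.

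Signals are given as the log2 of Agilent's processed signal minus the array's own 75th percentile over probes that were well above background on all 6 arrays, so that 0 is the level of a bright probe. Levels of different probes are not comparable, because probes differ in brightness at equal RNA. Between 38.4% and 55.8% of the spots of an array were well above background, and with so few arrays and lines each value has limited precision. The spread between replicate arrays was taken over 13255 genes and unnamed features, above background on all arrays and flagged as saturated on none. Replicate arrays differed with an SD of 0.30 in WT, 0.38 in TKO_26 and 0.23 in TKO_29. On the probe that stood for each targeted gene, Tet1 differed from WT by -1.02 in TKO_26 and -1.69 in TKO_29, Tet2 by -1.09 and -1.90, and Tet3 by 1.05 and -0.62. The other probes gave -0.08 and 0.23 for Tet1, -1.25 and -1.50 for Tet2, and -1.26 and -1.60 for the second Tet3 probe. The third Tet3 probe had a signal on each WT array and on 0 TKO arrays, at least 2.24-fold lower in TKO_26 and at least 8.52-fold lower in TKO_29. Thus Tet1 and Tet3 each had a probe that was not lower in every TKO line. Whether these probes fall inside the deleted exons was not analysed here, so they check the labels only in part. Of 10 marker genes of embryoid body derivatives, 9 had a signal well above background on each WT array. All 6 arrays came from 1 slide, with WT in one column and TKO in the other, so slide position and genotype cannot be told apart.

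Germline and meiosis genes were higher in TKO embryoid bodies more often than lower. A member is said to rise where each TKO line was at least 2-fold above WT with a limma adjusted p, taken over all features tested, under 0.05. On this rule 10 of 26 members rose: Dazl, Ddx4, Stk31, Brdt, Tex14 and Stra8 of the germline set and Tex15, Ccnb1ip1, Rec8 and Dmc1 of the meiotic set. Among all 21421 genes and unnamed features tested, 4.05% rose. In TKO_26 alone 12 members were called higher and 0 lower, where 5.6% and 7.79% of all features were. In TKO_29 alone 10 were called higher and 1 (Taf7l) lower, where 8.16% and 11.2% of all features were. No member (0) fell in both lines, against 6.59% of all features; at an unadjusted p under 0.05 in both lines, 3 members (Tex101, Taf7l and Mov10l1) and 15.5% of all features were lower. In bulk RNA, more cells that express a gene and more RNA per cell cannot be told apart. The panel was chosen with results of these data known, so its share is a description and not a test.

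The median log2 difference of the 26 members was 1.03 in TKO_26 and 0.73 in TKO_29, beside 0.02 and -0.09 over all features. All 4 TKO arrays lay above both WT arrays for 17 members, and all 4 lay below for 5, where 24.9% and 25.5% of all features did so. In the germline set 6 of 17 tested genes rose, and in the meiotic set 4 of 9. The filter bears on these counts: 10 members lacked a signal above background on at least 1 WT array and entered through a TKO line, 4 of them (Dazl, Stra8, Ccnb1ip1 and Msh4) with no WT array above background. Of the 16 members measured on all 6 arrays 6 rose, and 0 fell; in a fit restricted to such probes, 2.92% of 15364 features rose and 4.8% fell. When each line was counted once, as the mean of its arrays, 1 member, Ccnb1ip1, was called (limma adjusted p = 0.0491), and 0 were called lower, against 0.154% and 0.752% of all features. The other 9 members that rose had adjusted p up to 0.213 on line averages. Unadjusted, 12 of the 26 members had a p under 0.05, against 18.0% of all features. The call of Ccnb1ip1 rests on WT values that were not above background. In the fit restricted to probes above background on all 6 arrays, 0 members were called on line averages.

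**Figure D1:**
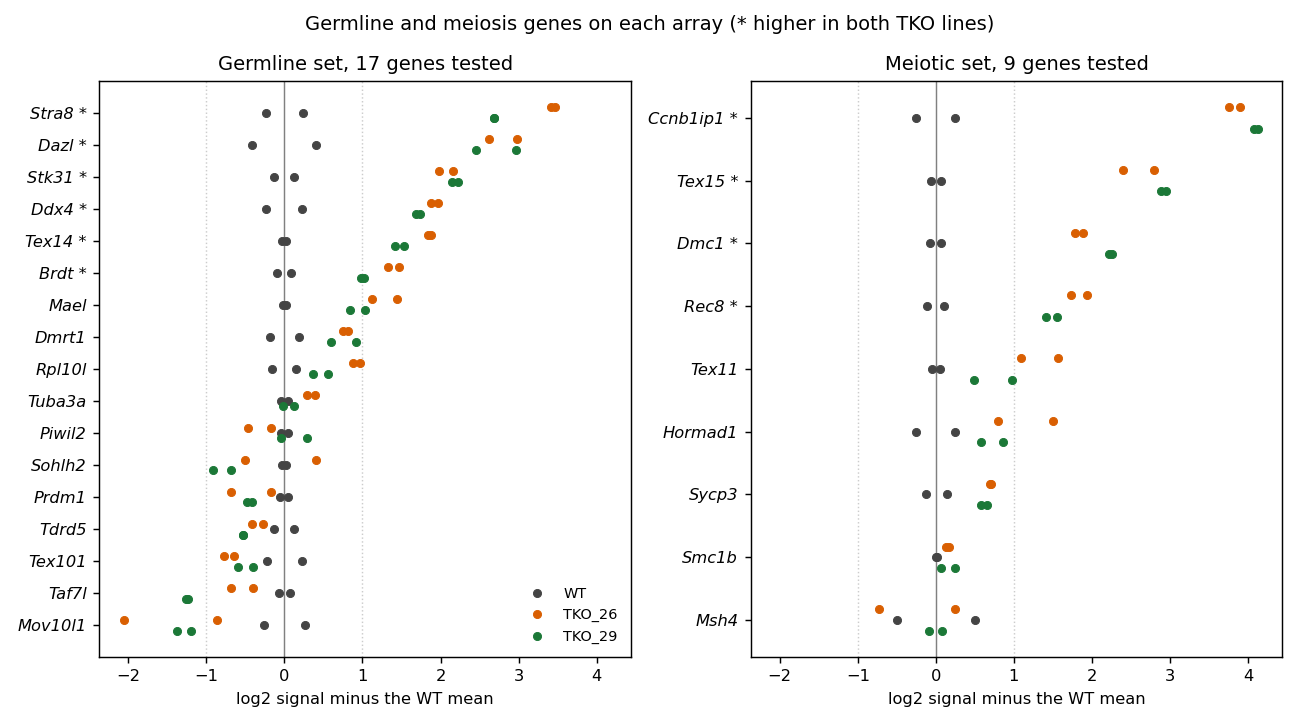
Signal of each array minus the WT mean (log2) for the 26 tested members, in the germline set (left) and the meiotic set (right). Each dot is an array, dotted lines mark a 2-fold difference, and an asterisk marks the 10 genes that rose. By the rule that chose these 10, both TKO lines lie to the right of WT.

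RNA-binding and germ granule proteins protect the germline transcriptome and silence transposons through piRNAs. Of 10 such members 7 were tested and 3 rose. Ddx4, the VASA helicase of germ granules, had levels of -4.88 and -5.35 in WT, -3.23 and -3.14 in TKO_26, and -3.37 and -3.42 in TKO_29. All TKO arrays lay above WT, and the TKO lines lay close to each other. The log2 difference was 1.93 ± 0.19 (SE, n = 2 arrays per line) in TKO_26 and 1.72 ± 0.19 in TKO_29, or 3.81-fold and 3.29-fold (adjusted p = 0.00411 and 0.00438).

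Dazl, an RNA-binding protein that licenses germ cells to enter gametogenesis, had levels of -9.07 and -8.24 in WT, -6.03 and -5.67 in TKO_26, and -5.68 and -6.19 in TKO_29. Neither WT array was well above background, and 3 of 4 TKO arrays were, 1 of TKO_26 and 2 of TKO_29. Its fold is a bound of at least 3.08-fold in TKO_29. Such a bound replaces each WT value under the array's lowest signal well above background by that lowest signal, and keeps TKO values as measured. In TKO_26 this gave 3.26-fold, which is no strict bound, because 1 of its arrays was not above background. The limma adjusted p was 0.00759 for TKO_26 and 0.00639 for TKO_29. Here and for other genes given as a bound, the p-value uses all values as measured and does not test the bound. Stk31, a kinase with a Tudor domain, had levels of -7.25 and -7.50 in WT, -5.21 and -5.39 in TKO_26, and -5.22 and -5.15 in TKO_29. WT and TKO did not overlap, and 1 WT array was above background, which gives at least 3.76-fold in TKO_26 and at least 4.07-fold in TKO_29 (adjusted p = 0.00171 and 0.00144). With normexp background correction the calls of both genes were lost, with log2 differences of 1.11 and 0.64 for Dazl and 1.14 and 0.91 for Stk31.

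Mael, a piRNA pathway protein, differed by 1.28 ± 0.16 in TKO_26 (adjusted p = 0.0079) and by 0.93 ± 0.16 in TKO_29 (adjusted p = 0.0138), the latter just under 2-fold. Its levels were -5.19 and -5.15 in WT, -4.05 and -3.73 in TKO_26, and -4.14 and -4.33 in TKO_29, so the groups did not overlap. Tdrd5, a Tudor domain protein of germ granules, had levels of -3.47 and -3.72 in WT, -3.87 and -4.01 in TKO_26, and -4.12 and -4.12 in TKO_29. All TKO arrays lay below WT, with differences of -0.34 and -0.53 that did not pass, and its other probe gave -0.19 and -0.42. Mov10l1, the piRNA helicase, had measured signals past 2-fold lower in both lines without passing the test, on a probe above background on 1 WT array, 0 arrays of TKO_26 and 2 of TKO_29. Its levels were -7.46 and -6.94 in WT, -8.06 and -9.26 in TKO_26, and -8.58 and -8.40 in TKO_29, and its differences were -1.46 ± 0.44 and -1.29 ± 0.44 (adjusted p = 0.0751 and 0.0766). With the dark TKO_26 arrays set to their lowest signal above background, the first is 1.27-fold lower. That is no strict bound, because only 1 WT array was above background. The arrays of TKO_26 stood far apart, and without TKO_26 replicate 1 Mov10l1 was called lower in both lines (-2.06 and -1.29). Piwil2, the PIWI protein MILI, differed by -0.32 and 0.13 and was above background on 3 arrays.

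Some genes of the same pathway gave no measurable signal. The probes of Tdrd1 and Asz1, a Tudor domain protein and a mitochondria-linked piRNA factor, were well above background on no array (0 of 6). That of Tdrd9, a piRNA helicase, was so on 1 array of TKO_29. The values of Tdrd1 were -8.94 and -10.04 in WT, -8.20 and -10.01 in TKO_26, and -11.20 and -10.76 in TKO_29, and those of Asz1 ran from -8.29 to -11.22. No difference was detectable for these genes.

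Testis-specific members serve transcription, translation, metabolism and cell structure in male germ cells. Of 7 such genes 6 were tested and 2 rose. Tex14, which is needed for the intercellular bridges of germ cells, had levels of -4.82 and -4.77 in WT, -2.95 and -2.91 in TKO_26, and -3.26 and -3.37 in TKO_29. The arrays of each line lay close together, and TKO and WT were far apart. The rise was 3.63-fold in TKO_26 (1.86 ± 0.12, adjusted p = 0.00133) and 2.78-fold in TKO_29 (1.47 ± 0.12, adjusted p = 0.00198). Brdt, the testis bromodomain protein, had levels of -6.45 and -6.26 in WT, -4.88 and -5.02 in TKO_26, and -5.37 and -5.33 in TKO_29. The groups did not overlap, and the difference was 1.40 ± 0.13 in TKO_26 and 1.0 ± 0.13 in TKO_29 (adjusted p = 0.00362 and 0.00666), at the edge of the 2-fold limit. Its call was lost without WT replicate 1 or TKO_29 replicate 2, where the difference in TKO_29 was 0.91 and 0.99, and under 4 other settings, and its dimmer probe gave -0.06 and 0.56.

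The remaining testis genes did not rise. Taf7l, an X-linked TFIID subunit of germ cells, had levels of -2.43 and -2.57 in WT, -2.90 and -3.19 in TKO_26, and -3.74 and -3.76 in TKO_29. It was lower than WT on all TKO arrays and was called in TKO_29 alone (-1.25 ± 0.15, adjusted p = 0.00527), with -0.55 ± 0.15 in TKO_26 (adjusted p = 0.0607). The difference between the TKO lines, -0.71, did not pass (adjusted p = 0.1). Tuba3a, a testis alpha-tubulin, had levels of -2.46 and -2.54 in WT, -2.11 and -2.21 in TKO_26, and -2.52 and -2.38 in TKO_29. These overlap, and both of its probes lay within 0.34 of WT. Rpl10l, a retrogene copy of a ribosomal protein, differed by 0.93 and 0.46 on the probe that stood for it and by 1.29 and 1.45 on the other, with every TKO array above WT on each. Tex101, a germ cell surface protein, differed by -0.71 and -0.50 near background. Slc25a31, the testis ADP/ATP carrier, was above background on no array (0 of 6).

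Regulators decide germ cell fate and the start of meiosis. Of 4 such members, all tested, 1 rose. Stra8, which retinoic acid induces at meiotic entry, had levels of -8.02 and -8.50 in WT, -4.85 and -4.79 in TKO_26, and -5.57 and -5.58 in TKO_29. No WT array and all 4 TKO arrays were above background, and the arrays of TKO_26 lay above those of TKO_29. The rise was at least 6.66-fold in TKO_26 and at least 3.93-fold in TKO_29, from measured log2 differences of 3.44 ± 0.19 and 2.68 ± 0.19 (adjusted p = 0.00107 and 0.00159). The difference between the TKO lines, -0.76, did not pass (adjusted p = 0.124). With normexp the values were 1.86 and 1.04, and the call in TKO_29 was lost. Prdm1, the repressor that starts germ cell specification, had levels of -1.91 and -2.02 in WT, -2.64 and -2.13 in TKO_26, and -2.37 and -2.44 in TKO_29. It lay lower than WT on all TKO arrays, by 0.42 and 0.44 on average, and did not pass. Dmrt1, a regulator of the switch from mitosis to meiosis, differed by 0.79 ± 0.19 and 0.77 ± 0.19, under 2-fold, with all TKO arrays above WT. Sohlh2, a transcription factor of early gametogenesis, differed by -0.05 and -0.80, and the arrays of TKO_26 lay on either side of WT.

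**Figure D2:**
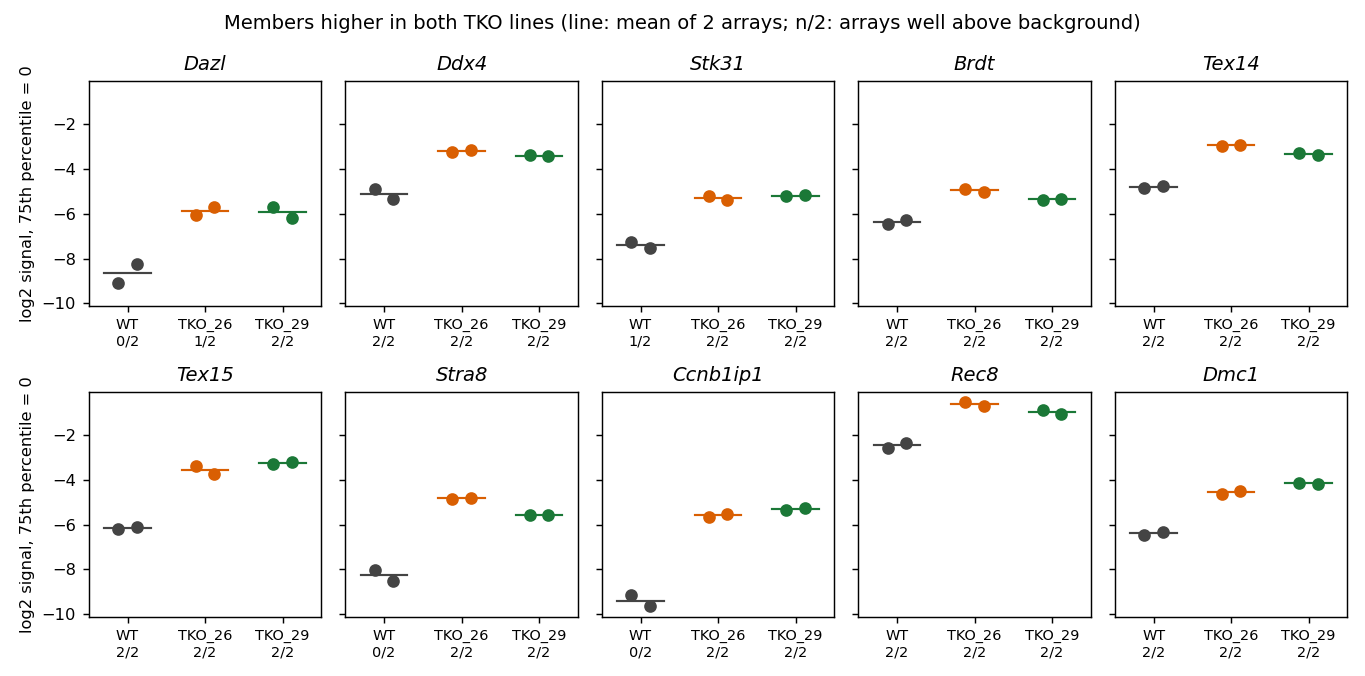
Normalised log2 signal (75th percentile of the array = 0) of the 10 members that rose, on both arrays of each line, with the line mean as a bar and the number of arrays well above background under each line. Every TKO array lies above both WT arrays of its gene; levels are not comparable between genes.

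Chromosome axis and synaptonemal complex proteins organise meiotic chromosomes. Of 6 such members 4 were tested and 1 rose. Rec8, the meiotic cohesin subunit, had levels of -2.56 and -2.34 in WT, -0.52 and -0.72 in TKO_26, and -0.90 and -1.04 in TKO_29. It was measured on all arrays without overlap, and rose 3.56-fold in TKO_26 (1.83 ± 0.15, adjusted p = 0.00257) and 2.79-fold in TKO_29 (1.48 ± 0.15, adjusted p = 0.00363). Its partner in the meiotic cohesin complex, Smc1b, stayed close to WT, with signals of -4.36 and -4.35 in WT, -4.19 and -4.23 in TKO_26, and -4.12 and -4.30 in TKO_29. The difference was 0.15 ± 0.12 in each line (adjusted p = 0.445 and 0.373), although all 4 TKO arrays lay above WT. Sycp3, a component of the chromosome axis, differed by 0.69 ± 0.14 and 0.61 ± 0.14 (adjusted p = 0.0275 and 0.0280), under 2-fold in both lines. Hormad1, which marks unpaired axes, differed by 1.14 ± 0.31 and 0.72 ± 0.31 on one probe, without passing, and by 0.10 and -0.50 on the dimmer one. Sycp1 and Sycp2, which build the synaptonemal complex with Sycp3, were above background on no array (0 of 6).

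Recombination factors make, repair and resolve meiotic DNA breaks. Of 6 such members 5 were tested and 3 rose. Ccnb1ip1, the crossover factor HEI10, had levels of -9.15 and -9.65 in WT, -5.65 and -5.51 in TKO_26, and -5.33 and -5.27 in TKO_29. WT was at background and all TKO arrays were above it, which gives at least 3.93-fold in TKO_26 and at least 4.77-fold in TKO_29. The measured differences were 3.82 ± 0.20 and 4.10 ± 0.20 (limma adjusted p = 0.000959 and 0.000793), from WT values that were not above background. With normexp they were 1.85 and 1.68, and both calls were kept. The array holds 1 probe for Ccnb1ip1. Dmc1, the meiotic recombinase, had levels of -6.46 and -6.32 in WT, -4.61 and -4.50 in TKO_26, and -4.13 and -4.17 in TKO_29. It rose 3.58-fold in TKO_26 (1.84 ± 0.12, adjusted p = 0.00154) and 4.73-fold in TKO_29 (2.24 ± 0.12, adjusted p = 0.000979). The other 2 of its 3 probes had differences of 2.32 and 2.20 in TKO_26 and of 2.84 and 2.83 in TKO_29, so all 3 gave the same direction.

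Tex15, a meiotic repair and transposon silencing factor, had levels of -6.21 and -6.09 in WT, -3.36 and -3.75 in TKO_26, and -3.27 and -3.20 in TKO_29. The groups lay far apart, and the gene rose 6.03-fold in TKO_26 (2.59 ± 0.17, adjusted p = 0.00149) and 7.54-fold in TKO_29 (2.92 ± 0.17, adjusted p = 0.00108). Its second probe was above background on no array (0 of 6) and measures nothing here. Tex15 lies on chromosome 8, whose 783 named genes tested had median differences of 0.45 in TKO_26 and 0.43 in TKO_29, where all named genes had -0.01 and -0.04. No other member that rose lies on this chromosome. Tex11, an X-linked crossover factor, differed by 1.33 ± 0.25 in TKO_26 (adjusted p = 0.0222) and by 0.74 ± 0.25 in TKO_29 (adjusted p = 0.0739), with 1 WT array and 3 TKO arrays above background. Msh4, a MutS homologue that stabilises crossover intermediates, differed by -0.24 and -0.01 on a probe above background only on both arrays of TKO_29. Spo11, the enzyme that makes meiotic DNA breaks, was above background on no array (0 of 6).

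**Figure D3:**
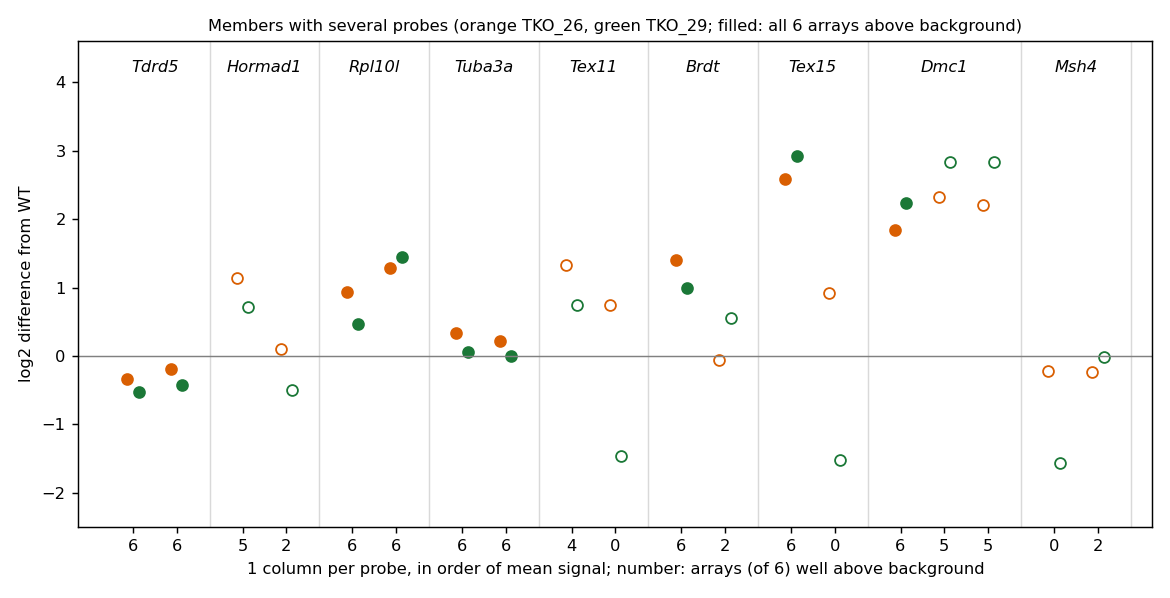
Log2 difference from WT on each probe of the 9 members with more than 1 probe, for TKO_26 (orange) and TKO_29 (green); filled circles are probes above background on all 6 arrays, and the number under each probe counts the arrays above background. The 3 probes of Dmc1 lie between 1.84 and 2.84, while probes above background on no array scatter on both sides of 0.

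The TKO lines were also compared with each other. None (0) of the 26 members was called between TKO_29 and TKO_26, nor was any (0%) of the 21421 features. Differences between the lines ran from -0.76 to 0.45, with limma adjusted p from 0.1 to 0.993, and 6 members (Taf7l, Rpl10l, Brdt, Tex14, Stra8 and Dmc1) had an unadjusted p under 0.05, where 22.3% of all features did. A p that misses the threshold does not show that the lines were alike. Without TKO_26 replicate 2, Sohlh2 was called lower in TKO_29 than in TKO_26 (-1.21, adjusted p = 0.0488).

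Genes of the same programme outside the panel were counted in the same way, in lists to be read against the 4.05% of all features that rose and the 6.59% that fell. Of 22 other meiosis genes 17 were tested, 5 rose and 0 fell, with median differences of 0.91 in TKO_26 and 0.86 in TKO_29. Which of these genes lie on chromosome 8, whose genes had median differences of 0.45 and 0.43, was not examined. Syce2, of the synaptonemal complex, had levels of 0.26 and 0.29 in WT and of 1.41, 1.60, 1.43 and 1.57 on the TKO arrays. It differed by 1.23 and 1.22. Meiob, which binds single-stranded DNA, differed by 1.66 and 1.70, measured on 1 WT array and 4 TKO arrays (at least 2.83-fold). Msh5, the partner of Msh4, differed by 1.32 and 1.01, and Mei1, needed for meiotic breaks, by 1.14 and 1.06. Hfm1, a crossover helicase, differed by 2.00 and 2.81 but was above background on no WT array and on 3 of 4 TKO arrays. With the dark WT arrays set to their lowest signal above background, it was 1.34-fold higher over both TKO lines, which is no strict bound. Of 20 other germ granule and germ cell genes 12 were tested, 2 rose and 0 fell: Tdrd12 (1.73 and 1.61) and Pld6 (1.48 and 1.54), both of the piRNA pathway. The medians of this list were 0.38 and 0.47.

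Genes of primordial germ cells overlap with those of pluripotent stem cells. Of 8 such genes 2 rose, Prdm14, a repressor that specifies germ cells (1.96 and 1.59), and Dppa3, which protects methylation in the early embryo (2.59 and 2.14), and 0 fell. The summed linear signal of the 8 was 3.51 to 3.88 in WT, 5.70 to 6.06 in TKO_26 and 4.69 to 4.77 in TKO_29. Its unit is the array's 75th percentile, and it was higher on all TKO arrays than in WT. Bright genes weigh most in such a sum, and the brightest was Ifitm3, which did not rise. The sum therefore does not count primordial germ cells. Among 12 pluripotency markers 3 rose (Nanog, Sox2 and Tcl1) and 0 fell, with median differences of 0.97 in TKO_26 and 0.53 in TKO_29. At an unadjusted limma p under 0.05 in both lines, 1 of the 12 (Zfp42) and 15.5% of all features were lower. All 4 TKO arrays lay above both WT arrays for 8 markers and below for 2, where 24.9% and 25.5% of all features did so. Nanog rose on its brighter probe (2.29 and 1.76) and differed by 0.18 and -0.48 on the other, and Pou5f1, chosen after its values were seen, differed by 0.22 and 0.60. All 12 markers were above background on every array. The sum of these markers was 17.1 to 22.3 in WT, 23.7 to 28.5 in TKO_26 and 15.5 to 20.6 in TKO_29. This sum lay above WT in TKO_26 and overlapped it in TKO_29. Counted by line, 5 of the 12 markers were called higher in TKO_26 and 4 in TKO_29, where 5.6% and 8.16% of all features were. None (0) was called lower in either line, where 7.79% and 11.2% of all features were. The part of primordial germ cells or pluripotent cells in the result was not tested.

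Markers of gonadal somatic cells did not move with the members. Of 12 such genes 9 were tested, 0 rose and 1 fell, Cyp11a1, a steroidogenic enzyme that trophoblast also expresses (at least 12.6-fold lower over both TKO lines, above background on each WT array and 2 TKO arrays). Counted by line, 1 of the 9 was called lower in TKO_26 and 3 in TKO_29, where 7.79% and 11.2% of all features were. Amh and Fshr, of Sertoli and granulosa cells, gave no testable signal. The summed signal of the 9 was 2.60 to 2.70 in WT, 2.61 to 2.78 in TKO_26 and 1.39 to 1.43 in TKO_29. Among 18 known repressors of germline genes, including E2F6, MGA and the DNA methyltransferases, 1 rose and 0 fell: Ring1, a Polycomb ubiquitin ligase (1.33 and 1.63). E2f6 (-0.59 and -0.61) and the methyltransferase Dnmt3a (-0.81 and -0.98) were lower in both lines with a limma adjusted p under 0.05 in each, but by less than 2-fold. They were the only 2 of the 18 lower in both lines at an unadjusted limma p under 0.05, where 15.5% of all features were. The median differences of the 18 were 0.26 in TKO_26 and 0.07 in TKO_29. All TKO arrays lay above WT for 7 of them and below for 2, where 24.9% and 25.5% of all features did so. The sum of the repressors was 35.2 to 39.9 in WT, 35.2 to 42.1 in TKO_26 and 23.8 to 34.4 in TKO_29. It lay below WT in TKO_29 alone. Bright genes weigh most in this linear sum, and the brightest was Dnmt3b. Dnmt3b had levels of 3.31 and 2.79 in WT and of 1.31 and 2.32 in TKO_29. The sum therefore does not show a fall of the repressors as a group, and their part in the result was not tested. The brightest probe of the methyltransferase Dnmt3b, chosen after its values were seen, differed by -0.25 and -1.24, while its other probes lay between 0.37 and 0.56.

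The promoters of members that rose overlapped in content with those of members that did not. The 9 members that rose and have a listed promoter held 10 to 38 CpG dinucleotides (median 20), the 13 that were tested and did not rise held 6 to 48 (median 19), and the 6 that were not measurable held 10 to 22 (median 18.5). Either motif occurred in 7 of these 9, 9 of 13 and 4 of 6 promoters, and in 25.2% of all promoters. Smc1b shows this for single genes: its 300 bases hold 29 CpG dinucleotides and TCCCGC, against 18 and the same motif for Rec8, which rose. Stra8 rose with 10 CpG dinucleotides and neither motif. These are descriptions of the letters in a fixed window, with no test.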

How the data were processed

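Embryoid body RNA of 3 lines was measured on 6 one-colour (Cy3) Agilent arrays. Per the file headers, the authors made the scanner files with Agilent Feature Extraction 10.5.1.1, and they give spot intensity, background-subtracted and detrended within the array. A matrix deposited by the authors holds log2 values with unstated normalisation. Its columns correlated with the unscaled log2 median signals of their own arrays at 0.995 or more, although TKO_29 replicate 1 was matched as well by another array (0.996). Column medians were 6.86 to 6.89. Outlier spots were dropped (263 probes lost) and probes were named through RefSeq accessions (GRCm38.p6), which gave 49.4% a symbol. A probe was tested if well above background on both arrays of a line, and the brightest such probe represented its gene. Group differences come from limma 3.58.1 (R 4.3.3; 3 groups, 6 arrays; also line averages, with 1 residual degree of freedom, which takes the spread between lines from TKO alone), and p-values were adjusted by Benjamini-Hochberg. The tests were tested on simulated data. Alternatives were scaling, normexp (offset 50, on median signals since the files used have no mean signal), the matrix, filters, probe means, a variance trend, the replicate number as a block, and leaving out each array with values and filter kept. Members and lists were chosen with earlier results of these data known. All members are named; values on every array are given for members that rose, were past 2-fold in both lines, or had the brightest probe of their role.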

Additional observations from a re-analysis of the deposited data

How the results depend on the processing

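The 10 genes that rose kept a positive difference in both lines under each of the 14 alternatives in which they were tested, and Ddx4, Tex14, Tex15, Ccnb1ip1, Rec8 and Dmc1 kept their call wherever tested. Normexp gave 6 rising members, and 7 called in TKO_29. Requiring signal on 6 of 6 arrays left 16 members, with 6 rising, 7 called in TKO_26 and 7 in TKO_29. Leaving out 1 array gave 9 to 11 members called in both lines, 11 to 13 in TKO_26, 10 to 12 in TKO_29 and 0 to 1 between the TKO lines. On line averages the 1 call became 4 with normexp, 9 with the authors' matrix, 9 with a variance trend, 0 with signal on all arrays and 0 without a filter, and leaving out 1 array gave 0 to 7: 7 without TKO_26 replicate 1, 5 without TKO_29 replicate 1, 2 without WT replicate 2, 1 without WT replicate 1 and 0 without TKO_26 replicate 2 or TKO_29 replicate 2. The cause was not tested.

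Signs turned only for line-specific differences that were not called; Tex11 was called in TKO_26 and turned in TKO_29. With normexp, Piwil2 was 0.03 in TKO_26 and -0.43 in TKO_29, Hormad1 and Tex11 were both -0.28 in TKO_29 and Msh4 was 0.04 in TKO_26. With the matrix, Tex101 was 0.02 and Msh4 0.26 in TKO_29. Scaling over all probes gave 0.04 for Sohlh2 in TKO_26 and 0.06 for Msh4 in TKO_29. Leaving out 1 array gave -0.50 to 0.41 for Sohlh2 and -0.74 to 0.26 for Msh4 in TKO_26, and -0.04 to 0.29 for Piwil2, -0.02 to 0.12 for Tuba3a and -0.50 to 0.49 for Msh4 in TKO_29. Normexp moved the median of all features in TKO_29 from -0.09 to -0.31 and gave 306 features higher and 889 lower in both lines, against 867 and 1412.

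The replicate numbers do not pair the arrays: replicate differences correlated between lines at 0.17, -0.16 and -0.23. With the replicate number as a block, 10 members rose, the same genes.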
